A study of Mus musculus with 61 samples.

Results

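Nuclei of the D2 class of the mouse nucleus accumbens were compared between mice with and without a morphine history, all of them challenged with morphine shortly before death. The comparison rests on the 14 libraries whose labels give the cell type D2 and the treatment MM or SM, of 61 libraries in all. The 7 MM libraries come from mice given morphine daily for 15 days, kept in the home cage for 30 days and challenged with morphine 1 h before death. The 7 SM libraries come from mice treated in the same way except that the daily injections were saline, so that the challenge was their only morphine. Every mouse was male and carried the D2-Cre driver together with LSL-eGFP::L10a, a Cre-dependent green fluorescent ribosomal protein by which nuclei were sorted from frozen punches. The MM and SM groups therefore share the driver, the reporter, the challenge and the sort, and differ in history. Which of the listed doses of 20 and 10 mg/kg each mouse received is not given, nor whether a library holds 1 mouse or several, so p-values measure the spread between these libraries. The other D2 groups, MS (morphine history, saline challenge, 8 libraries) and SS (saline throughout, 7 libraries), and the D1-Cre groups MM (7) and SM (8) serve below only to show where the D2 history effect differs.

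D2 projection neurons are a main output cell of the striatum. They carry the dopamine D2 receptor, which lowers cyclic AMP through Gi proteins, and an adenosine receptor encoded by Adora2a, which raises it through Golf, and they release enkephalin, an opioid peptide made by the body itself. Morphine acts mainly on the mu opioid receptor, a Gi-coupled receptor whose activation lowers cyclic AMP, opens inward rectifier potassium channels and closes calcium channels. Repeated opioid exposure is known for lasting adaptations of cyclic AMP signalling and of glutamate synapses in the nucleus accumbens. Immediate early genes such as Fos and Egr1 are transcribed within minutes of strong synaptic input and are widely read as a trace of recent neuronal activity.

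The labelled cell class was visible in the counts. Drd2 ran from 342 to 1492 CPM (counts relative to the library total, without TMM scaling) in the 14 libraries, against 40.5 to 164 CPM in the 32 D1 libraries. Drd1 ran from 6.71 to 14.0 CPM, against 29.7 to 134 CPM in the D1 libraries, so neither gene overlapped between the driver lines. Pdyn and Tac1 did not overlap either. Adora2a (37.1 to 126 CPM, against 15.8 to 49.0 in the D1 libraries) and Penk (147 to 380, against 23.5 to 224) did overlap. Total counts ran from 15646872 to 23139243 in MM and from 15539738 to 19361287 in SM. Receptor genes of the olfactory and vomeronasal epithelia, silent in the striatum as far as known, nevertheless carried counts in each library, and their density per kb of gene served as a background. It averaged 0.474 ± 0.114 CPM per kb in MM and 0.537 ± 0.0727 in SM (SD, n = 7 each), a difference of -0.0632 that an exact two-sided permutation test over all regroupings did not separate from 0 (p = 0.238, Benjamini-Hochberg adjusted over 3 library measures 0.357). Spread over all gene spans, this density would account for 42.4% to 85.2% of counts in MM, with a median of 58.3%, and for 53.8% to 79.5% in SM, with a median of 73.3%. The 4 lowest densities of the 14 belonged to MM replicates 2, 4 and 1 and SM replicate 4, and the highest to MM replicate 7. Over all 29 D2 libraries the first principal component, with 38.0% of the variance, followed this density (Pearson r 0.937 in size, Spearman rho 0.919, permutation p = 1e-05 each, the smallest that 100000 resamples can give; r 0.935 without the 2 farthest libraries).

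**Figure D1:**
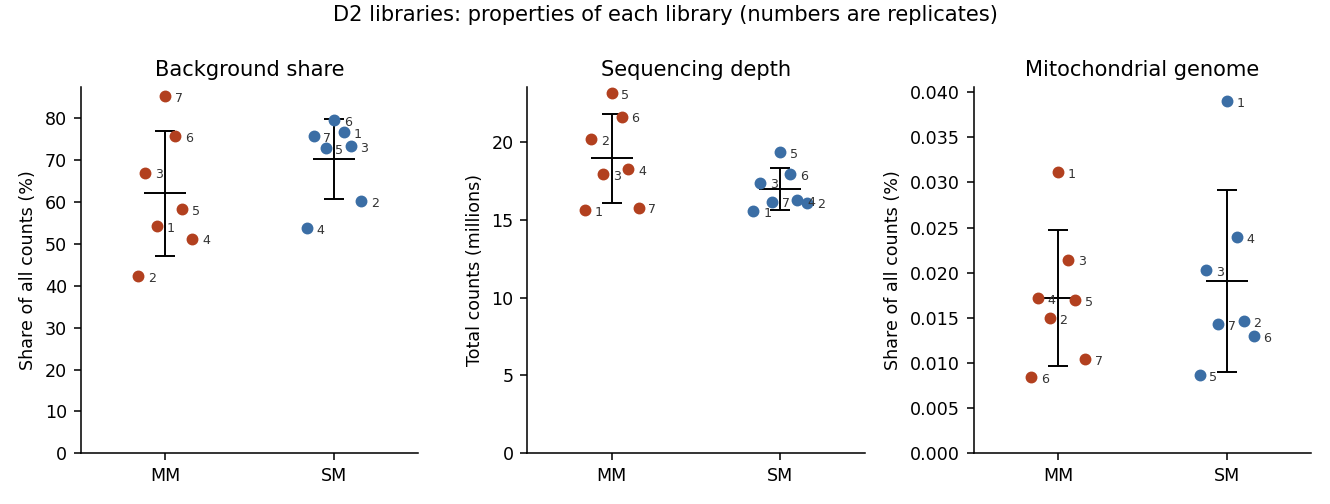
Background share, total counts and the share of counts on the mitochondrial genome are plotted for each D2 MM and D2 SM library, with replicate numbers beside the points and bars for the mean ± SD (n = 7 each). MM libraries span a background share of 42.4% to 85.2% and enclose the SM range of 53.8% to 79.5%.

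No gene passed the test between MM and SM. Of 41125 genes tested by edgeR's quasi-likelihood test, 0 were higher and 0 lower (0% each) at an adjusted p under 0.05, and the smallest adjusted p was 0.608. At an unadjusted p under 0.05 there were 3180 genes (7.73%), where chance gives about 2056, with 1653 higher (4.02%) and 1527 lower (3.71%). The number was under that of chance without MM replicate 2 (1404), with the background covariate (1597) and without the 4 libraries of lowest background (835), and was 7075 without MM replicate 7. DESeq2 and limma voom also called 0 genes, with 3181 and 3048 genes under the unadjusted threshold. Of the genes tested, 10481 lay at least 2 times above the receptor-gene background over the D2 libraries, and among these 489 were higher (4.67%) and 237 lower (2.26%) at an unadjusted p under 0.05. For 9457 of these 10481 genes (90.2%) the 95% interval of the log2 fold change stayed within 1 of 0 on either side. Each MM library lay above each SM library at 11 genes (0.0267%) and below each at 12 (0.0292%). No result is read from these counts, and Nme5 and Nutm2 are shown only because they were also among the smallest p values under 2 times background. Nme5 ran from 12.7 to 13.6 TMM-scaled CPM in MM with a median of 13.0, and from 9.56 to 11.53 in SM with a median of 11.1. Nutm2 ran from 2.56 to 3.47 in MM with a median of 3.03, and from 3.76 to 4.16 in SM with a median of 3.92. Their adjusted p in edgeR was 0.608 as well, with log2 fold changes of 0.25 ± 0.06 and -0.38 ± 0.10 (SE).

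The genes with the smallest p values among those higher in MM were, by the rule for named genes, Kcnip4, Nlgn1, Fgf14, Ttll7, Tmem223, Kcnd2, Kcnq5, Grm5, Plppr1 and Grm3, all with an edgeR adjusted p of 0.608. Kcnip4, on chromosome 5 (48389502 to 49524907 on mm10), encodes an auxiliary subunit of Kv4 potassium channels, which carry the fast A-type current of dendrites. It ran from 897 to 2439 TMM-scaled CPM in MM with a median of 1319, and from 799 to 1145 in SM with a median of 972, and its log2 fold change was 0.67 ± 0.18 (SE). MM replicates 2, 5, 1, 4 and 6 lay above the highest SM library, MM replicate 3 stood among the SM values and MM replicate 7 in their lower part.

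Kcnd2, which encodes the pore-forming subunit Kv4.2 of the same channel, ran from 504 to 1931 in MM with a median of 879, and from 465 to 676 in SM with a median of 627 (log2 0.75 ± 0.24). The same 5 MM libraries exceeded all SM libraries, with MM replicate 2 at 1931 well above the next highest, replicate 1 at 1228. Of the other Kv4 genes, shown after their values were seen, the log2 fold change was 0.47 ± 0.21 for Kcnip3, 0.45 ± 0.34 for Kcnip2, 0.39 ± 0.18 for Dpp6, 0.28 ± 0.13 for Kcnd3, 0.13 ± 0.14 for Kcnd1, 0.06 ± 0.07 for Dpp10 and -0.002 ± 0.07 for Kcnip1. Kcnq5, a subunit of the M-type potassium current that damps repetitive firing, ran from 567.9 to 1993 in MM with a median of 968, and from 543 to 774 in SM with a median of 709 (log2 0.68 ± 0.22). Here 4 of 7 MM libraries lay above all SM libraries.

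Fgf14, an intracellular relative of the fibroblast growth factors that binds sodium channels, ran from 595 to 1822 in MM with a median of 888, and from 534 to 698 in SM with a median of 671 (log2 0.72 ± 0.21). All MM libraries except replicate 7 lay above the SM range. Grm5, the receptor mGlu5 that couples glutamate to calcium release, ran from 489 to 1552 in MM with a median of 840.5, and from 449 to 667 in SM with a median of 614 (log2 0.65 ± 0.21). Nlgn1, a postsynaptic adhesion protein of glutamate synapses, ran from 684 to 1554 in MM with a median of 980, and from 620 to 796 in SM with a median of 748 (log2 0.53 ± 0.15). For both, the 4 MM libraries above the SM range were replicates 2, 1, 5 and 4, while replicates 3, 6 and 7 overlapped SM. The log2 fold change was 0.43 ± 0.14 for the Gi-coupled glutamate receptor gene Grm3, 0.41 ± 0.14 for Plppr1, 0.25 ± 0.08 for the tubulin-modifying enzyme gene Ttll7 and 0.65 ± 0.21 for Tmem223, the only gene of the 10 under 10 kb.

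**Figure D2:**
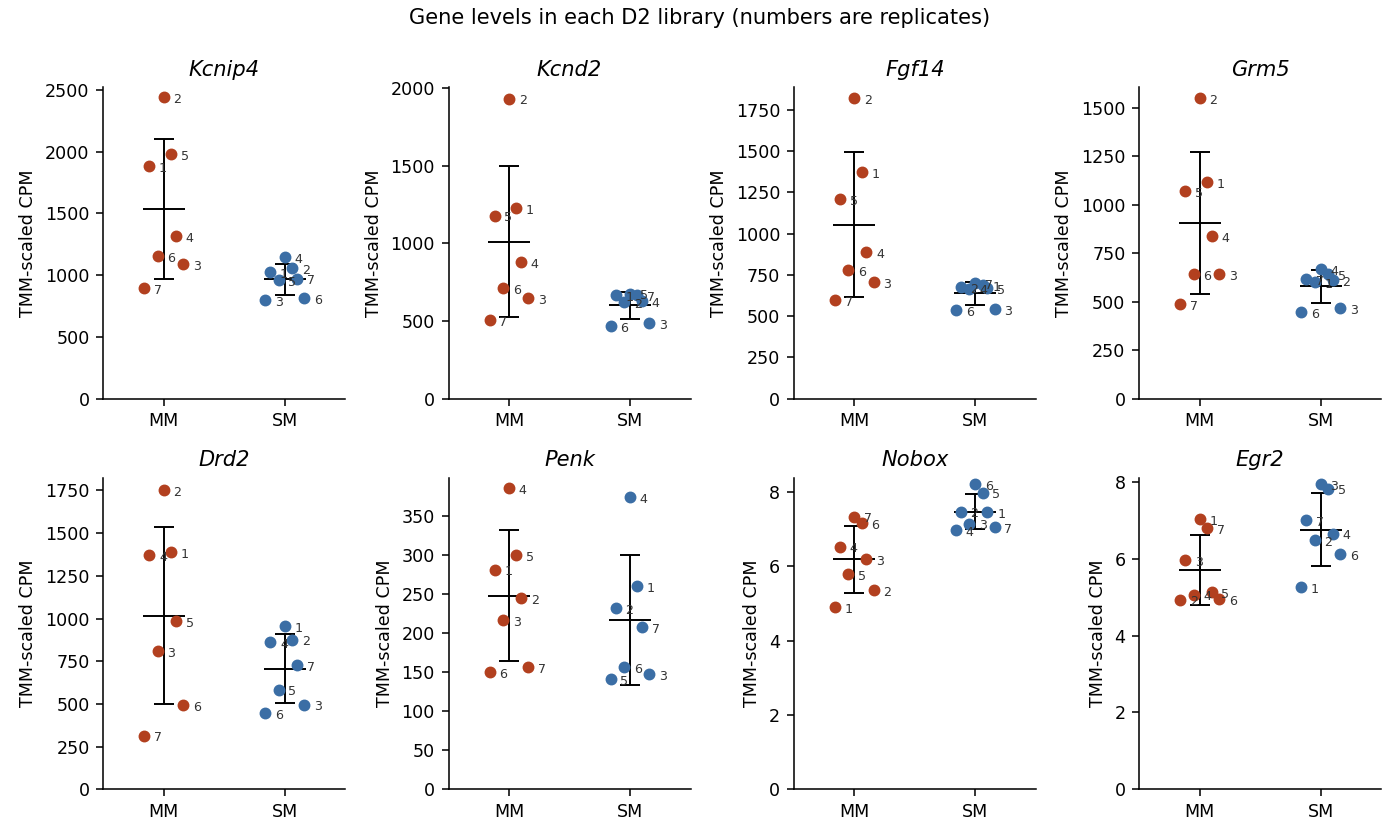
TMM-scaled CPM of 8 genes in each D2 MM and D2 SM library, with replicate numbers beside the points and bars for the mean ± SD (n = 7 each). MM replicates 2, 1, 5 and 4 stand above the SM libraries at Kcnd2, Fgf14 and Grm5, Drd2 and Penk overlap between the groups, and Nobox and Egr2 lie lower in most MM libraries.

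These 10 genes shared features that the comparison did not use. In 9 of 10 the gene spanned over 100 kb, and in these 9 MM replicate 2 was the highest and MM replicate 7 the lowest library of the MM group. MM replicate 2 had the lowest receptor-gene background of the 14 libraries and MM replicate 7 the highest. With the background density as a covariate all 10 log2 fold changes kept their sign and retained between 0.42 and 0.58 of their size, for instance 0.39 for Kcnip4 and 0.32 for Kcnd2. Without the 4 libraries of lowest background they also kept their sign, with 0.47 for Kcnip4 and 0.37 for Kcnd2. The part of the background in these differences was not tested further. Of the 10, 8 overlap another gene in the annotation, and since the strand setting of the counting is not given in the sources used here, their counts may include reads of that neighbour.

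The genes with the smallest p values among those lower in MM were AC138174.2, Nobox, Mup5, Ralb, Zfp691, Mup21, AC164546.1, Olfr313, S100a5 and Ivl, again with an edgeR adjusted p of 0.608, and 9 of the 10 spanned under 10 kb. Nobox, a transcription factor of the oocyte on chromosome 6 (43303674 to 43309554 on mm10), ran from 4.90 to 7.33 TMM-scaled CPM in MM with a median of 6.19, and from 6.96 to 8.21 in SM with a median of 7.45 (log2 -0.27 ± 0.08). Of the MM libraries 5 lay below the SM range, and all 7 lay below its median. Ralb, a small GTPase of vesicle traffic and the only gene of the 10 above 10 kb, ran from 27.0 to 33.6 in MM with a median of 31.0, and from 30.2 to 39.2 in SM with a median of 36.5 (log2 -0.21 ± 0.07). Mup5 and Mup21 encode urinary proteins of a family of near-identical copies, which counting can split, and had -0.33 ± 0.12 and -0.35 ± 0.14. Ivl, a skin envelope protein, had -0.31 ± 0.13, the odorant receptor gene Olfr313 had -0.31 ± 0.13 and S100a5 had -0.30 ± 0.12. Olfr313 belongs to the receptor genes of which the background was measured. All 10 lay between 2.01 and 2.51 times background, and with the background covariate they kept their sign and at least 0.66 of their size.

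Under 2 times background, the smallest unadjusted p values belonged in one direction to Ddx20, Nme5, Mctp1, Dok6 and Ammecr1, with log2 fold changes of 0.34, 0.25, 0.38, 0.29 and 0.39, and in the other to Chrna6, Nutm2, Tex14, Olfr685 and Awat1, with -0.36, -0.38, -0.24, -0.47 and -0.50. Chrna6, a nicotinic receptor subunit known from dopamine neurons, ran from 5.54 to 7.74 in MM with a median of 6.51, and from 7.38 to 9.89 in SM with a median of 8.68. None of these passed the test.

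Among genes above background, the median difference was larger in longer genes. Over 5317 protein-coding genes at least 2 times background, 4550 were higher in MM and the median log2 fold change was 0.15, against -0.03 over all genes tested. By span the median was 0.02 under 3 kb (607 genes), 0.10 at 3 to 10 kb, 0.15 at 10 to 30 kb, 0.21 at 30 to 100 kb, 0.27 at 100 to 300 kb and 0.35 over 300 kb (115 genes). Over all 41125 genes tested, most of them under 2 times background, the medians by span were smaller, from -0.06 under 1 kb to 0.06 over 300 kb. With the background covariate the 6 medians of the protein-coding genes lay between -0.11 and 0.06, and without the 4 libraries of lowest background between -0.002 and 0.08. As fitted, genes under background leaned the other way, with a median of -0.09 under 0.5 times background and -0.06 at 0.5 to 1 times. At 2 to 4, 4 to 8 and over 8 times background the medians were 0.09, 0.13 and 0.11. With the covariate they were -0.04, -0.09 and -0.16, and 3920 of the 5317 protein-coding genes were lower.

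**Figure D3:**
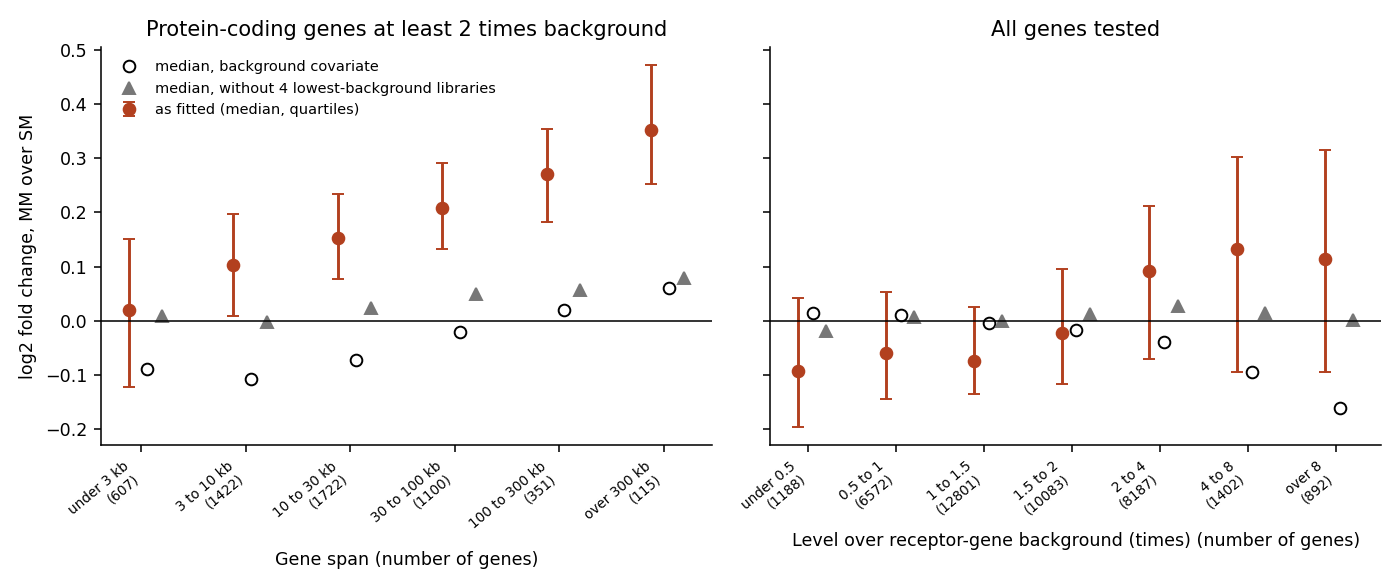
Median log2 fold change of MM over SM (filled circles, bars for the quartiles over genes) by gene span among protein-coding genes at least 2 times background, and by level over background among all genes tested, with the number of genes in brackets. The median reaches 0.35 in genes over 300 kb. Medians without the 4 libraries of lowest background (triangles) lie between -0.02 and 0.08. Those with the background covariate (open circles) run from -0.16 over 8 times background to 0.06 in genes over 300 kb.

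The genes that define D2 neurons overlapped between the groups. All 7 of the 7 D2 markers tested, of 8 listed, had a positive log2 fold change, with a median of 0.31, and 1, Gprin3, had an unadjusted p under 0.05. The median was 0.10 over all genes at least 2 times background. Of 5317 protein-coding genes of that level 4550 were higher, with a median of 0.15. Drd2 ran from 315 to 1752 in MM with a median of 986, and from 447 to 955 in SM with a median of 728 (log2 0.52 ± 0.36, adjusted p = 0.626, edgeR). The MM libraries lay on both sides of the SM range, with 4 above it and 1 below. Penk, the precursor of enkephalin, ran from 149.97 to 387 in MM with a median of 245, and from 141 to 375 in SM with a median of 208 (log2 0.19 ± 0.27, adjusted p = 0.778, edgeR). Adora2a, the adenosine receptor, had 0.33 ± 0.28, and Gprin3, an effector of G proteins, 0.51 ± 0.25. With the background covariate the median of the list was -0.09 and the value of Drd2 itself -0.18, so the sign of these values depends on how background is treated. Protein-coding genes at least 2 times background had a median of -0.06 in that fit. Of 12 transcription factors of striatal projection neurons 11 were higher, with a median of 0.20 (0.00 with the covariate), and the smallest p was that of the retinoic acid receptor gene Rarb at 0.53 ± 0.19. Markers of D1 neurons had a median of 0.03, with 5 of 9 higher, and Drd1 had 0.18 ± 0.25, while Slc35d3, a member of the same list, had 0.42 ± 0.18.

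**Figure D4:**
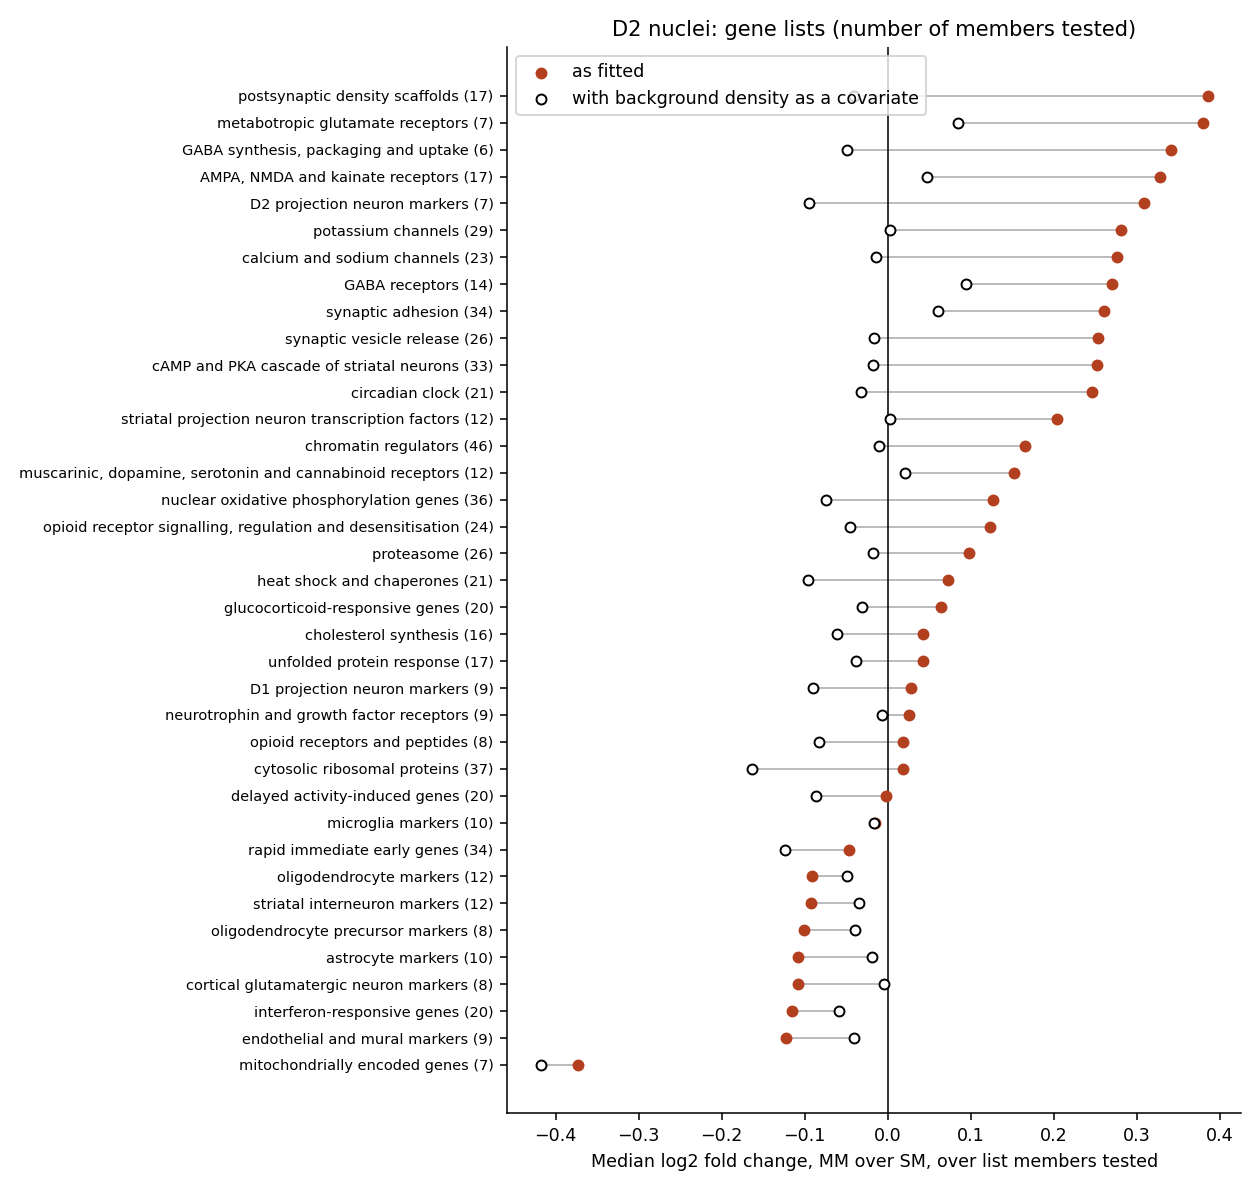
Median log2 fold change of MM over SM for each gene list, with the number of members tested in brackets, as fitted (filled) and with the receptor-gene background as a covariate (open). Medians as fitted run from -0.37 for mitochondrially encoded genes to 0.39 for postsynaptic density scaffolds, and 13 lists at or above 0.20 all lie within 0.1 of 0 with the covariate.

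The receptors through which morphine acts were close to background or overlapped between the groups. Oprm1, the mu receptor, stood at 1.04 times background and ran from 135 to 145 in MM with a median of 139.8, and from 132 to 144 in SM with a median of 140.1 (log2 0.01 ± 0.05, 95% interval -0.08 to 0.10). At that level its counts cannot be told from the background. Oprd1, the delta receptor that binds enkephalin, stood at 2.53 times background and ran from 26.9 to 61.2 in MM with a median of 43.5, and from 28.96 to 39.0 in SM with a median of 34.0. Its log2 fold change was 0.36 ± 0.16 (unadjusted p = 0.0299, adjusted p = 0.608, edgeR), and 4 MM libraries lay above and 1 below the SM range. Oprk1, the kappa receptor, ran from 15.2 to 27.0 in MM with a median of 18.7, and from 13.1 to 19.3 in SM with a median of 15.5 (log2 0.38 ± 0.16). With the background covariate Oprd1 had 0.08 and Oprk1 0.15. Of 24 genes of opioid receptor signalling and desensitisation 18 were higher, with a median of 0.12. Their smallest unadjusted p values were those of Kcnj5, an inward rectifier subunit, at -0.20 ± 0.08, and Rgs7, which speeds the switching-off of Gi proteins, at 0.17 ± 0.08.

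Genes of the cyclic AMP cascade, the pathway on which dopamine, adenosine and opioid receptors converge, were higher in MM in 31 of 33 members, with a median of 0.25 and 5 members at an unadjusted p under 0.05. At least 2 times background all 23 members were higher (median 0.40), as were 4550 of 5317 protein-coding genes of that level (median 0.15). Of the 23 members 4 had an unadjusted p under 0.05. Of the 5317 protein-coding genes 319 were higher at that threshold, and of all genes of that level 4.67%. Adcy9, an adenylyl cyclase, had 0.44 ± 0.18 and the transcription factor gene Atf2 0.25 ± 0.10. Gnal, the alpha subunit of Golf, ran from 168 to 515 in MM with a median of 325, and from 161 to 291 in SM with a median of 242 (log2 0.43 ± 0.23). Pde10a, the phosphodiesterase of striatal neurons, ran from 572 to 2523 in MM with a median of 1203, and from 608 to 1321 in SM with a median of 922 (log2 0.65 ± 0.35). The groups overlapped at both genes, and with the covariate Gnal had 0.02 and Pde10a -0.04. Ppp1r1b, which encodes DARPP-32, had 0.26 ± 0.32 and Rgs9, a striatal regulator of Gi signalling, 0.54 ± 0.37, against -0.24 and -0.19 with the covariate. The median of the list was then -0.02.

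Synaptic and channel genes were higher in MM in most members, and none passed. Of 17 AMPA, NMDA and kainate receptor genes 13 were higher, with a median of 0.33 and 7 at an unadjusted p under 0.05, and the smallest p was that of the kainate receptor gene Grik2 at 0.48 ± 0.16. Of 14 GABA receptor genes 13 were higher (median 0.27), with Gabra2 at 0.47 ± 0.17 and Gabrb1 at 0.27 ± 0.08. Potassium channel genes were higher in 24 of 29 (median 0.28) and calcium and sodium channel genes in 22 of 23 (median 0.28), among them the calcium channel beta subunit gene Cacnb2 at 0.55 ± 0.21. Synaptic adhesion genes were higher in 28 of 34 (median 0.26), with 13 at an unadjusted p under 0.05. Over all genes tested, 4.02% were higher at that threshold. Among members at least 2 times background, 3 of 13 adhesion and 3 of 8 AMPA, NMDA and kainate receptor genes were higher at it. The share over all genes of that level was 4.67%, and of 5317 protein-coding genes of that level 319 were higher at it. Span was not matched in these shares. Protein-coding genes of that level had a median of 0.27 at 100 to 300 kb and 0.35 over 300 kb. Il1rapl1 and Cntnap2, adhesion proteins with some of the longest genes of the genome, had 0.62 ± 0.18 and 0.30 ± 0.08. Vesicle release genes were higher in 25 of 26 (median 0.25), with the active zone gene Rims2 at 0.42 ± 0.16, and postsynaptic density scaffolds in 15 of 17 (median 0.39), with Dlg2 at 0.56 ± 0.20. At least 2 times background, all members of these lists were higher except 1 vesicle release gene (17 of 18), with 13 of 13 for adhesion, 8 of 8 for AMPA, NMDA and kainate receptors and 6 of 6 for GABA receptors, beside 4550 of 5317 protein-coding genes of that level. With the background covariate the medians of these 7 lists lay between -0.04 and 0.09. Htr2c, a serotonin receptor gene, had 0.60 ± 0.18 and 0.34 with the covariate.

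Immediate early genes overlapped between MM and SM. Of 34 rapid immediate early genes 14 were higher and 20 lower, with a median of -0.05, and 1 higher (Homer1) and 3 lower had an unadjusted p under 0.05. The lower ones were Egr2 and, named after their values were seen, Klf4 at -0.27 ± 0.13 and Trib1 at -0.21 ± 0.10. Klf4 and Trib1 stood under 2 times background, and Egr2 at 2.04 times. Of all genes under 2 times background, 19729 of 30644 were lower in MM, with a median of -0.06. Of the 22 members at least 2 times background, 10 were higher and the median was -0.03, against 0.15 over protein-coding genes of that level. With the background covariate 26 of the 34 were lower and the list median was -0.12. In that fit 22878 of all 41125 genes tested were lower, with a median of -0.01. Over all genes at least 2 times background the median was -0.05. Promoters are printed for Egr2, which had the smallest p of the list, and for Fos and Npas4, classical members read as activity reporters. Each is 250 bases before to 50 after a RefSeq start on GRCm38.p6, on the strand of the gene, with capitals for TGACG or its reverse complement CGTCA, the core of the cyclic AMP response element.
Egr2 (chr10:67537619-67537918, plus strand, that of its 5 listed starts with the most matches): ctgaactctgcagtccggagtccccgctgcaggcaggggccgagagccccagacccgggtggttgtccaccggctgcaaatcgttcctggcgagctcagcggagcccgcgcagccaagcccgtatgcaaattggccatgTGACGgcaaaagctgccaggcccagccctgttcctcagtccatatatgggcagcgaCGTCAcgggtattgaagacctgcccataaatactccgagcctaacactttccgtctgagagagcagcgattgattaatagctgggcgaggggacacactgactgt
Fos (chr12:85473640-85473939, plus strand): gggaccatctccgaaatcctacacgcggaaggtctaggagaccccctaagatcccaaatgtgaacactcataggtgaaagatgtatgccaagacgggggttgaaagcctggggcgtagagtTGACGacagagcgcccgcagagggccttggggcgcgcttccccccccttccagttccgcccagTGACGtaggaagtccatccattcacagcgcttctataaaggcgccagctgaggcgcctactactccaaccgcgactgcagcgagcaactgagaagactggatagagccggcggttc
Npas4 (chr19:4989922-4990221, minus strand): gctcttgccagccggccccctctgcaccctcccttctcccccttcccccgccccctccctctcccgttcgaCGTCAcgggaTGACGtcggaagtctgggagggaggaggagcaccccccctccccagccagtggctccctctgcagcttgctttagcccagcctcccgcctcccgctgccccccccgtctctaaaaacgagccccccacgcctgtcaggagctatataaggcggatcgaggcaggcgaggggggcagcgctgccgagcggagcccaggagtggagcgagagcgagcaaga
Each window held 2 matches to the cyclic AMP core on either strand. At least 1 match occurs in 20.81% of 32851 promoters of the same length. For Egr2, shown at the start with the most matches of 5, that share is not a like comparison. A match is a description of the letters.

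Fos ran from 2.49 to 4.29 TMM-scaled CPM in MM with a median of 3.56, and from 2.82 to 5.10 in SM with a median of 3.56. Its log2 fold change was -0.06 ± 0.15 (95% interval -0.36 to 0.24, adjusted p = 0.881, edgeR), and no MM library lay above the SM range. Egr2, a zinc finger factor of the Egr family, ran from 4.94 to 7.04 in MM with a median of 5.13, and from 5.26 to 7.95 in SM with a median of 6.66 (log2 -0.25 ± 0.10, unadjusted p = 0.0206, adjusted p = 0.608, edgeR). Of its MM libraries 4 lay below the SM range, and replicates 1, 7 and 3 lay within it. Npas4, a factor induced by calcium entry, ran from 8.73 to 15.96 in MM with a median of 11.9, and from 7.29 to 19.1 in SM with a median of 11.2 (log2 0.02 ± 0.28, 95% interval -0.55 to 0.59). Arc, a protein of active synapses, ran from 5.94 to 10.1 in MM with a median of 6.59, and from 3.98 to 16.7 in SM with a median of 6.80 (log2 -0.13 ± 0.32). At both genes the SM libraries enclosed all MM libraries. Egr1 had -0.14 ± 0.26, Fosb -0.09 ± 0.15, Junb -0.05 ± 0.24 and the nuclear receptor gene Nr4a1 0.02 ± 0.22. Homer1, a scaffold with an activity-induced short form that gene counts do not tell apart, ran in the other direction, at 88.1 to 217 in MM with a median of 139, and 72.9 to 124 in SM with a median of 99.8 (log2 0.42 ± 0.19). Of the slower activity-induced genes 10 of 20 were higher, with a median of -0.002, Spry4 at -0.25 ± 0.08 and Bdnf at -0.20 ± 0.10.

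In other comparisons these genes had higher fitted values with a morphine history. Under the saline challenge, D2 MS over SS gave log2 fold changes of 0.90 ± 0.25 for Egr1, 0.83 ± 0.26 for Npas4, 0.71 ± 0.29 for Arc, 0.67 ± 0.22 for Junb and 0.67 ± 0.21 for Nr4a1. Smaller values were those of Fos at 0.13 ± 0.14, Fosb at 0.16 ± 0.14 and Egr2 at 0.09 ± 0.10. All of the 22 list members at least 2 times background were higher, with a median of 0.42. The median was 0.22 over all genes of that level and 0.38 over protein-coding genes of that level. The first 5 genes named did not pass in edgeR (adjusted p between 0.0713 and 0.0976), where the comparison had 0 calls and 13164 genes (32%) at an unadjusted p under 0.05. DESeq2 called 4863 genes higher and 1373 lower in MS, and edgeR with a replicate block 5844 higher and 2751 lower. Limma voom called 0 genes, and so did edgeR with the background covariate. The covariate fit had 5638 genes at an unadjusted p under 0.05 and a smallest adjusted p of 0.170. The test of the difference, MM over SM minus MS over SS, called 0 genes in edgeR, DESeq2 and limma voom (1464 at an unadjusted p under 0.05 in edgeR, 3.56%). It also called 0 with the background covariate, with 3778 genes under the unadjusted threshold and a smallest adjusted p of 0.0715. In it Egr1 had -1.04 ± 0.36 (unadjusted p = 0.00823) and Npas4 -0.81 ± 0.38 (unadjusted p = 0.0449), both with an adjusted p of 0.991 (edgeR without the covariate). Of the 22 members at least 2 times background 21 were negative (median -0.39). The median was -0.14 over all genes of that level and -0.22 over protein-coding genes of that level.

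In D1 nuclei the same history under the same challenge gave higher fitted values for immediate early genes. In a joint fit of all 61 libraries, D1 MM over SM had 1.27 ± 0.36 for Npas4, 1.20 ± 0.41 for Arc, 0.90 ± 0.34 for Nr4a1, 0.72 ± 0.21 for Fos and 0.39 ± 0.11 for Egr2. Of the 34 members 31 were higher, with a median of 0.39. At least 2 times background all 22 members were higher (median 0.55), as were 8119 of 10481 genes of that level (median 0.15). Over protein-coding genes of that level the median was 0.19. Cytosolic ribosomal protein genes were higher in 37 of 37 and heat shock genes in 20 of 21, each with a median of 0.35. No gene had an adjusted p under 0.999 in edgeR (0 genes called of 42870, 1008 or 2.35% at an unadjusted p under 0.05). The fitted variation between libraries of a group (edgeR's common coefficient) was 0.231 in the joint fit, against 0.154 in the D2 fit. The joint fit holds D1 SS replicate 1, with a background density of 0.0570 CPM per kb. The next lowest was 0.253, in D1 SM replicate 2. What that library does to these tests was not tested. The difference between D2 and D1 was tested directly, and 0 of 42870 genes were called, with 594 (1.39%) at an unadjusted p under 0.05. The covariate fit also called 0, with 1892 genes under the unadjusted threshold and a smallest adjusted p of 0.0692. Of the 34 immediate early genes 30 had a negative difference, D2 minus D1, and 9 of these had an unadjusted p under 0.05 (0.921% of all genes in that direction), with -0.63 ± 0.16 for Egr2 (unadjusted p = 0.000244), -0.77 ± 0.31 for Fos, -1.24 ± 0.52 for Npas4 and -1.32 ± 0.60 for Arc (adjusted p = 1.00 each, edgeR). Among the 22 members at least 2 times background the median of this difference was -0.59, against -0.03 over all genes of that level. A difference in the history effect on these genes between the driver lines was thus not detected after adjustment. The leading channel genes were not called in it either, at 0.59 ± 0.41 for Kcnip4 and 0.53 ± 0.51 for Kcnd2.

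**Figure D5:**
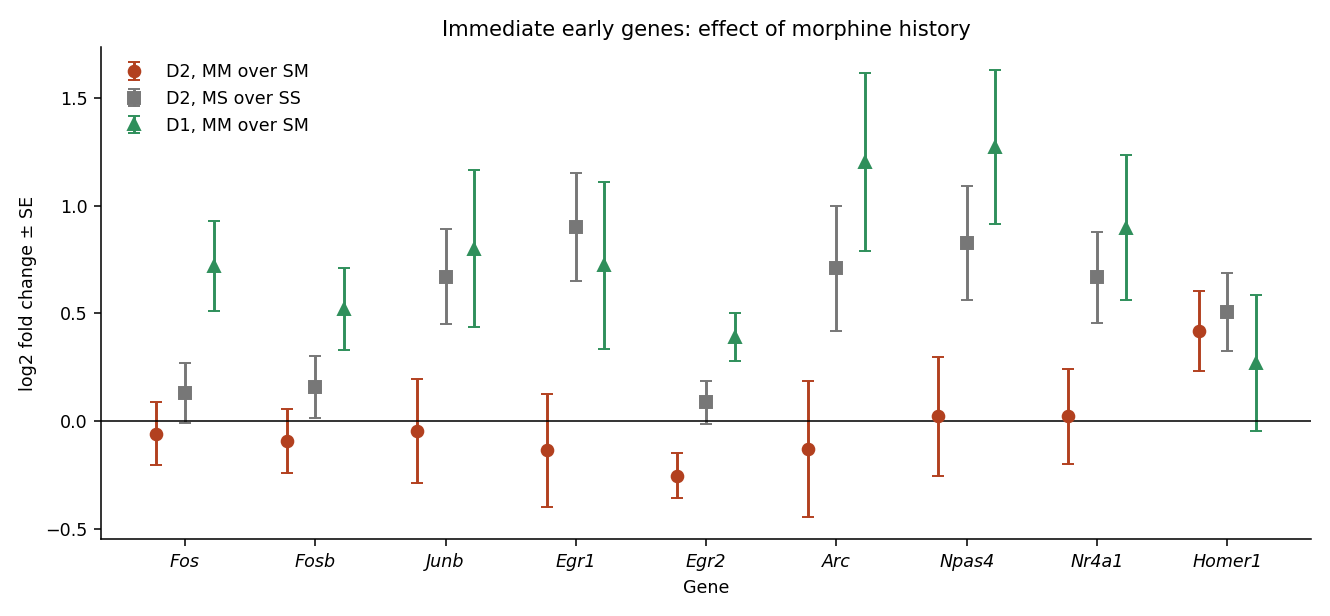
Log2 fold changes ± SE of 9 immediate early genes for D2 MM over SM, D2 MS over SS and D1 MM over SM. The D2 MM over SM values lie between -0.25 and 0.42, whereas D1 MM over SM reaches 1.27 at Npas4, and no value passes an adjusted p of 0.05.

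No gene of the chromatin, clock, stress and housekeeping lists passed the test. Chromatin regulators were higher in 39 of 46 (median 0.17), with the histone demethylase genes Kdm6a at 0.28 ± 0.13 and Kdm5b at 0.25 ± 0.12, and clock genes in 16 of 21 (median 0.25), with Rora at 0.38 ± 0.15 and Hlf at 0.35 ± 0.15. At least 2 times background 23 of 23 chromatin genes (median 0.24) and 13 of 14 clock genes (median 0.35) were higher. So were 4550 of 5317 protein-coding genes of that level (median 0.15). Heat shock genes had a median of 0.07, the unfolded protein response 0.04, glucocorticoid-responsive genes 0.06 and the proteasome 0.10. Sgk1, a kinase induced by glucocorticoids, had 0.29 ± 0.11, Fkbp5, a partner of the glucocorticoid receptor, 0.09 ± 0.07 and the mineralocorticoid receptor gene Nr3c2 0.24 ± 0.09. Nuclear genes of oxidative phosphorylation had a median of 0.13 with 32 of 36 higher, and cytosolic ribosomal protein genes 0.02 with 23 of 37 higher. With the background covariate 30 of the 36 and 35 of the 37 were lower, with medians of -0.07 and -0.16. In that fit chromatin regulators had a median of -0.01, clock genes -0.03 and protein-coding genes at least 2 times background -0.06. Mitochondrially encoded genes were lower in all 7 members that passed the filter on low counts, of 13 listed, with a median of -0.37, but SM replicate 1 set this value. At mt-Nd1 it held 20.2 TMM-scaled CPM, against 3.01 to 7.82 in MM and 3.40 to 6.72 in the other 6 SM libraries, and leaving it out gave a list median of 0.13. Interferon-responsive genes were lower in 16 of 20 (median -0.12), with Ifit2 at -0.21 ± 0.09 and Ifit3 at -0.25 ± 0.11, and 1 of them stood at least 2 times above background.

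Markers of other cell types lay mostly under 2 times background in these sorted nuclei. Above that level stood 2 of 12 oligodendrocyte, 1 of 8 oligodendrocyte precursor, 1 of 10 astrocyte, 0 of 10 microglia, 0 of 9 endothelial and mural, 2 of 12 interneuron and 0 of 8 cortical glutamatergic markers. Their medians lay between -0.12 and -0.02, near the -0.06 of all genes under 2 times background. Their summed levels overlapped between the groups, with 217 to 249.8 TMM-scaled CPM in MM and 215 to 245 in SM for oligodendrocytes, 613 to 915 in MM and 585 to 679 in SM for astrocytes, and 184 to 198 in MM and 171 to 204 in SM for microglia. No member was at 0 counts in any of the 14 libraries. The smallest p values were those of Npy, an interneuron peptide, at -0.26 ± 0.10, and of Tbr1, a cortical transcription factor, at -0.27 ± 0.10, and the part of other cells in the results above was not tested.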

How the data were processed

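Total RNA of sorted nuclei was measured with a stranded kit for small inputs. The authors deposited raw counts per gene, made with featureCounts on mm10 per the submitters' processing notes, and FPKM values, which served here to recover gene lengths. For 54281 of 54281 comparable identifiers that length equalled the gene span in GENCODE release M21. No source used here names the aligner, the strand setting or the versions. All 29 D2 libraries were fitted by treatment with edgeR 4.0.16 in R 4.3.3 (TMM scaling, filterByExpr, robust quasi-likelihood, two-sided) and all 61 jointly for D2 minus D1. A gene was called at a Benjamini-Hochberg adjusted p under 0.05, and fold changes are log2 values with their SE. Alternatives were DESeq2 1.42.0, limma 3.58.1 voom, other scalings and filters, the background density as a covariate, and libraries left out. The script was tested on simulated data. The background density is the sum of counts over 1464 olfactory and vomeronasal receptor genes (12909.6 kb). Named genes were the 10 smallest p values in each direction at a mean of at least 1 log2 CPM and 2 times background (leaving out Gm, Rik, -ps, mt-, Rpl and Rps names), 5 in each direction under 2 times background, the 2 smallest p values of each of 37 lists, and 20 fixed genes. The comparison, lists and rules were chosen with earlier results of these data known.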

Additional observations from a re-analysis of the deposited data

Results flagged for a closer look

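In 10 of 186 groups of 7 libraries examined, 1 library stood apart from its group by Dixon's test, where chance gives about 1 in 20. All values are TMM-scaled CPM. MM replicate 2, the library of lowest background, held 217.0 at Homer1 (next highest 139.8), 487.9 at Rgs7 (next 378.2) and 356.8 at Kcnip1 (next 293.9). SM replicate 1 held 20.15 at mt-Nd1 (next 6.72) and 22.27 at mt-Nd2 (next 6.55), and MM replicate 1 held 11.16 at mt-Nd2 (next 5.87). SM replicate 5 held 16.65 at Arc (next 9.20). On the low side, SM replicate 4 held 9.562 at Nme5 (next lowest 10.8) and 3.994 at Ifit3 (next 5.85), and MM replicate 1 held 2.416 at S100a5 (next 2.91). Without MM replicate 1 or without SM replicate 4 no gene was called either.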

How the results depend on the processing

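No alternative called a gene in MM against SM, in 23 settings that included each of the 14 libraries left out in turn (edgeR, smallest adjusted p over these 0.0835). The number of genes at an unadjusted p under 0.05 moved more, with 3180 as reported, 3167 with DESeq2 size factors, 3755 without a filter, 2552 with the MM and SM libraries alone, 899 with only genes at least 2 times background, 1597 with the background covariate and 835 without the 4 libraries of lowest background, a setting chosen after seeing the data. It ran from 1404 without MM replicate 2 to 7075 without MM replicate 7, and was 1820 without SM replicate 6, 5527 without SM replicate 4 and 5503 without MM replicate 6. The replicate numbers shared by MM and SM paired the libraries only in part by the check used. Correlations of same-numbered deviations ran from -0.01 (replicate 5) to 0.54 (replicate 6). MM replicates 3, 4 and 6 matched best the SM library of their own number. Replicates 1, 2 and 5 matched best SM replicate 4, and replicate 7 SM replicate 6. Whether the numbers mark a shared batch or are only names cannot be told. With a replicate block 0 genes were called (smallest adjusted p 0.408, edgeR) and 3775 had an unadjusted p under 0.05. The interaction had 0 and 1859, and D2 minus D1 had 0 and 664. The background difference ran from -0.09 to -0.04 CPM per kb with a library left out, with a permutation p between 0.0670 and 0.435 (exact). Signs turned with the background covariate at Drd2 (-0.18), Drd1 (-0.16), Penk (-0.094), Adora2a (-0.15), Npas4 (-0.25), Nr4a1 (-0.22), Pde10a (-0.038), Ppp1r1b (-0.24), Rgs9 (-0.19), Kcnd1 (-0.049) and Kcnip2 (-0.14). Without the 4 libraries of lowest background they turned at Drd2 (-0.043), Drd1 (-0.095), Adora2a (-0.065), Fos (0.051), Junb (0.047), Npas4 (-0.011), Nr4a1 (-0.21), Pde10a (-0.093), Ppp1r1b (-0.18), Rgs9 (-0.18) and Kcnip2 (-0.019). With only genes at least 2 times background Npas4 (-0.090) and Nr4a1 (-0.11) turned, with the replicate block Npas4 (-0.013), and Kcnip1, near 0, gave 0.0238 with DESeq2, 0.0239 with its size factors and 0.0004 without a filter. The cause of these changes was not tested. With a library left out, 81 of 90 genes kept their sign throughout, and the others ran from -0.25 to 0.14 for Arc, -0.11 to 0.042 for Fos, -0.15 to 0.081 for Junb, -0.031 to 0.033 for Kcnip1, -0.077 to 0.16 for Npas4, -0.034 to 0.076 for Nr4a1, -0.0028 to 0.043 for Oprm1, -0.66 to 0.042 for mt-Nd1 and -0.70 to 0.067 for mt-Nd2. Of the genes tested, 25.5% lay at least 2 times above background, and for the others the counts were near the background density.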
